A study of Mus musculus with 18 samples.

Results

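The classical cadherins and catenins build the adherens junction. Of the 49671 genes counted, 10 were taken by symbol through their Ensembl identifiers in the GRCm38 annotation: the cadherins Cdh1, Cdh2, Cdh3, Cdh4 and Cdh11, the catenins Ctnna1, Ctnna2, Ctnnd1 and Ctnnd2, and Epcam. RNA was sequenced from mouse ES cells grown in a 3D gel of growth-factor-depleted Matrigel in N2B27 medium, with 3 samples in each of 6 groups. Before that, all lines had been kept in 2i/Lif. E14 cells, a wild-type ES line at passage 20, were cultured for 48 h with DMSO alone, with CH (CHIR99021 at 3 µM, an inhibitor of Gsk3 that activates Wnt/β-catenin signalling), with 2i (the same dose of CHIR99021 plus 0.4 µM of PD0325901, which inhibits Mek) or with 12 ng/ml of Fgf2 plus 20 ng/ml of Activin A. A line of Esrrb fl/fl cells at passage 25, labelled as from Acr-EGFP transgenic mice and carrying a tamoxifen-inducible Cre, was cultured for 24 h in CH at 3 µM, either untreated (Esrrb floxed) or after 1 day of 4OHT (Esrrb null). Both Esrrb groups therefore carried the floxed allele, the Cre and CH, and they contained no 4OHT-treated cells that kept Esrrb, so 4OHT and the loss of Esrrb cannot be told apart. Line, passage and time in culture all differed between the E14 and the Esrrb fl/fl samples. In the study, DMSO, Fgf2/Activin and Esrrb null cells formed polarised rosettes, and CH, 2i and Esrrb floxed cells did not.

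Classical cadherins are transmembrane proteins whose outer domains bind the same cadherin on the next cell. Inside the cell, p120-family catenins (Ctnnd1, Ctnnd2) hold cadherins at the membrane, β-catenin or plakoglobin binds the end of the cadherin tail, and α-catenins (Ctnna1, Ctnna2) tie the complex to actin. Cdh1, E-cadherin, is the cadherin of ES cells and of the early epiblast. A switch from Cdh1 to Cdh2, N-cadherin, accompanies the exit of cells from the epiblast at gastrulation. Epcam is a homophilic adhesion molecule of a different fold that is abundant in epithelia and in pluripotent cells.

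The totals were 25388139 to 37158661 counts per sample in E14 cells and 19915222 to 20140699 in Esrrb fl/fl cells, and mitochondrial genes held 1.07% to 1.62% and 1.97% to 3.21% of them. Levels are given as CPM, each count relative to the total of its library as scaled across all 18 samples by edgeR's TMM, and, between genes, as CPM per kb of merged exon length. A gene was called when its adjusted p was under 0.01 and its log2 fold change above 1 in size. Every adjusted p is from the quasi-likelihood test of edgeR, adjusted by Benjamini-Hochberg over all genes tested in that fit. Same-numbered samples deviated together from their group means, and a fit with the replicate number as a block is given where it altered a call. In the E14 cells replicate 1 stood apart: it had the lowest Cdh2, Cdh4 and Ctnnd2 and the highest Cdh3, Ctnna1 and Epcam of its group in 4 of 4 groups. Esrrb itself, the targeted gene, had 2680, 2146 and 2109 counts in the floxed and 1211, 1333 and 1250 counts in the null samples, a log2 fold change of -0.99 (standard error, SE, of 0.10, adjusted p = 7.44e-05). Counts per gene include transcripts without the deleted exon, so they do not measure how complete the deletion was. Summed naive markers (Nanog, Esrrb, Klf2, Klf4, Tfcp2l1, Prdm14, Zfp42 and Tbx3, 8 of 8 with counts) reached 73.1 to 211 CPM in DMSO, 99.3 to 162 CPM in Fgf2/Activin, 1469 to 1659 CPM in CH and 2451 to 2686 CPM in 2i, against 783 to 1006 CPM in Esrrb floxed and 405 to 441 CPM in Esrrb null cells. That sum holds Esrrb itself. In null against floxed cells 2 of the 8, Klf2 and Klf4, were called lower, against 3.87% of all genes. Prdm14 (means of 2.47 CPM floxed and 2.19 CPM null) and Tbx3 (56.1 and 52.0 CPM) hardly differed.

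The 2 promoters printed here belong to the members with the clearest changes in opposite directions, Epcam and Ctnnd2. They were read from RefSeq's GRCm38.p6 promoter sequences, of which windows of 4 of the 10 members were used here. Whether that source held windows for the other members is not reported. Each printed window covers the 250 bases before the annotated start, on the gene's plus strand, 5′ to 3′. Epcam's window is chr17:87635729-87635978 and that of Ctnnd2 is chr15:30172284-30172533. Capitals mark CACCTG or its reverse complement CAGGTG, the E-box to which Snail and Zeb repressors bind.
Epcam: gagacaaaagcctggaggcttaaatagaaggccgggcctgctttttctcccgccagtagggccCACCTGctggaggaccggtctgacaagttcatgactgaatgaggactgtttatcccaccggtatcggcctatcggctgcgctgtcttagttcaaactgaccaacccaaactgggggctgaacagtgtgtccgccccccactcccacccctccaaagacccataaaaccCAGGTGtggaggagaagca
Ctnnd2: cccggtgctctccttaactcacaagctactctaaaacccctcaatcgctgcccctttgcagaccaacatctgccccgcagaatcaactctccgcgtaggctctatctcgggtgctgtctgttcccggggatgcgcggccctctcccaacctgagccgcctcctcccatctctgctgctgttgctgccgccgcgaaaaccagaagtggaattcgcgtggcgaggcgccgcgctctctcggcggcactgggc
Epcam's window held 2 such E-boxes, at -187 to -182 and at -19 to -14 from the start, and that of Ctnnd2 held none. Over all 32544 promoter windows, 17.3% held at least 1. Neither window held AAGGTCA (4.09% of windows), the extended half-site of oestrogen-related receptors such as Esrrb, or the TCF/LEF cores CTTTGAT (3.21%) and CTTTGAA (4.47%), on either strand. Among the windows not printed here, that of Ctnna2 held CACCTG at -182 to -177, and a window of Ctnnd1 held AAGGTCA at -85 to -79. A match is only a match of letters, and binding was not measured.

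**Figure D1:**
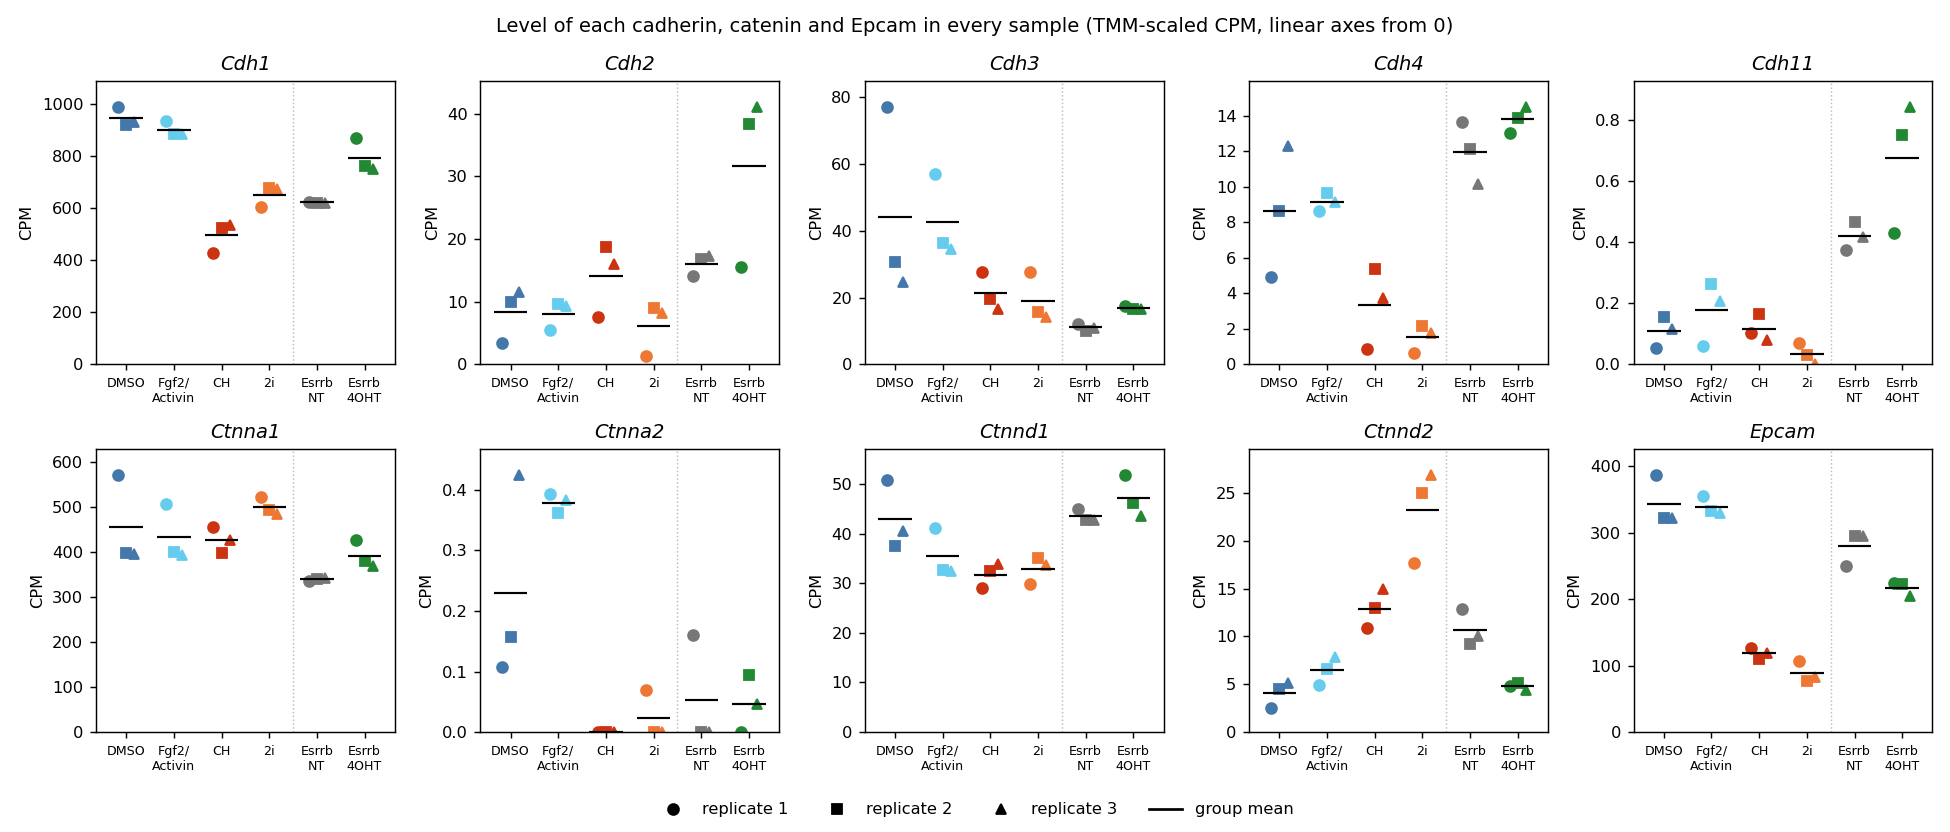
TMM-scaled CPM of each of the 10 genes in all 18 samples, on linear axes that start at 0. Symbols give the replicate number, black lines the group means, and the dotted line separates E14 cells from Esrrb fl/fl cells. Epcam falls from 321 to 387 CPM in DMSO to 111 to 127 CPM in CH, while Ctnnd2 rises from 2.54 to 5.10 CPM to 10.9 to 14.9 CPM.

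Cdh1 (chromosome 8, 106603351 to 106670246) was by far the most abundant of the 5 cadherins in every group. Per kb of exon it stood at 207 ± 8.40 CPM (SD, n = 3) in DMSO, where Cdh3 stood at 10.1 ± 6.56, Cdh4 at 1.19 ± 0.507 and Cdh2 at 1.03 ± 0.535. Of the summed level of the 5 cadherins, Cdh1 made up a mean of 93.8% in CH and 96.4% in 2i, the lowest and the highest of the 6 groups. The lowest single sample, replicate 1 in DMSO, was at 92.0%. Polarised and non-polarised cells thus both had E-cadherin RNA as their main cadherin RNA of these 5.

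Within that frame the level of Cdh1 differed between polarised and non-polarised E14 cells. It was 989, 918 and 929 CPM in DMSO and 936, 883 and 886 CPM in Fgf2/Activin. In CH it was 428, 524 and 536 CPM, and in 2i 604, 678 and 674 CPM. Every DMSO and Fgf2/Activin sample thus lay above every CH and 2i sample, and every 2i sample above every CH sample. Against DMSO, CH gave a log2 fold change of -0.93 (SE 0.08, adjusted p = 9.96e-06), just short of the fold minimum for a call. Between 2i and Fgf2/Activin it was -0.46 (SE 0.08, adjusted p = 0.000820), and between 2i and CH 0.39 (SE 0.08, adjusted p = 0.0171). Cdh1 was lower in 3 of 3 same-numbered pairs in both of the first comparisons. In these bulk samples a change in the number of cells of a type and a change in RNA per cell cannot be told apart.

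In the Esrrb fl/fl cells Cdh1 was 625, 620.4 and 621 CPM with Esrrb floxed and 868, 761 and 751 CPM with Esrrb null. The groups did not overlap, and the null cells, all in CH, were higher by a log2 fold change of 0.39 (SE 0.06, adjusted p = 0.000596), under the fold minimum. As differences between polarised and non-polarised cells, this was smaller than that between DMSO and CH: the difference of the 2 log2 fold changes was 0.58 (SE 0.11, adjusted p = 0.000817). Ordered by mean level, the groups ran from DMSO and Fgf2/Activin, whose ranges overlapped, through Esrrb null cells to 2i and Esrrb floxed cells, which overlapped too, and CH.

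Cdh2 (chromosome 18, 16588877 to 16809246), N-cadherin, was a minor cadherin throughout, and its level depended strongly on the replicate. It was 3.37, 9.99 and 11.5 CPM in DMSO and 7.59, 18.7 and 16.0 CPM in CH. In Fgf2/Activin it was 5.40, 9.57 and 9.29 CPM, and in 2i 1.39, 8.91 and 8.12 CPM. Replicate 1 was the lowest sample of each group, and the ranges of all 4 groups overlapped. Taken as independent samples, CH and DMSO gave 0.78 (SE 0.61, 95% interval -0.57 to 2.13, adjusted p = 0.336), and 2i and CH gave -1.20 (SE 0.62, 95% interval -2.56 to 0.16, adjusted p = 0.332). Within same-numbered pairs Cdh2 was lower in 2i than in CH in 3 of 3 pairs, at log2 ratios of -2.45, -1.07 and -0.98. With the replicate block that comparison was called, at -1.34 (adjusted p = 0.00544). Without replicate 1 of every group it was -1.03 (adjusted p = 7.83e-06), and it was the only member called by the block there. CH lay above DMSO in 3 of 3 pairs, by log2 ratios of 1.17, 0.91 and 0.48, and was not called by either fit. Without replicate 1 of every group it was 0.71 (adjusted p = 4.58e-05), under the fold minimum.

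In Esrrb null cells Cdh2 was higher in 3 of 3 pairs, though in 1 of them by a log2 ratio of only 0.14. Esrrb floxed cells had 14.2, 16.8 and 17.2 CPM and Esrrb null cells 15.5, 38.4 and 41.1 CPM. Replicate 1 of the null cells lay within the range of the floxed cells, while the other null samples lay far above it. The log2 fold change was 1.02 (SE 0.31, 95% interval 0.31 to 1.73, adjusted p = 0.0204), which missed the threshold. Without Esrrb null replicate 1 it was 1.35 (adjusted p = 1.82e-05), past both thresholds. Over the 6 fits that each left out 1 sample it ran from 0.79 to 1.35. With the block it was 0.95 (adjusted p = 0.000187), under the fold minimum. The polarised minus non-polarised difference had opposite signs in the 2 lines: DMSO lay below CH, and Esrrb null above Esrrb floxed cells. The difference between these differences was -1.76 (SE 0.78, adjusted p = 0.0848), and -1.72 (adjusted p = 0.00134) with the block, which was a call.

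Summed mesendoderm markers moved in the direction of the Cdh2 means between DMSO and CH, CH and 2i, and Esrrb floxed and null cells. They did not between Fgf2/Activin and 2i. Of the 6 listed (T, Eomes, Mixl1, Gsc, Mesp1, Evx1), 6 had counts in every group, and their summed level was 8.89 to 13.8 CPM in DMSO and 11.6 to 17.8 CPM in Fgf2/Activin, 461 to 692 CPM in CH and 86.3 to 119 CPM in 2i. It was 80.4 to 101 CPM in Esrrb floxed and 432 to 553 CPM in Esrrb null cells. T made up most of the sum in CH (mean 534 CPM) and in Esrrb null cells (396 CPM). In each fit 4 of the 6 were tested. T, Mixl1 and Evx1 were called higher in CH against DMSO and in Esrrb null against floxed cells, against 7.51% and 12.8% of all genes. They were called lower in 2i against CH (1.67% of all genes), whereas Eomes was called lower in CH than in DMSO (10.2%). Evx1 and Mixl1 had at most 1 and 9 counts in a DMSO sample and passed the E14 filter through groups where they were higher. The part of these markers in the level of Cdh2 was not tested.

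**Figure D2:**
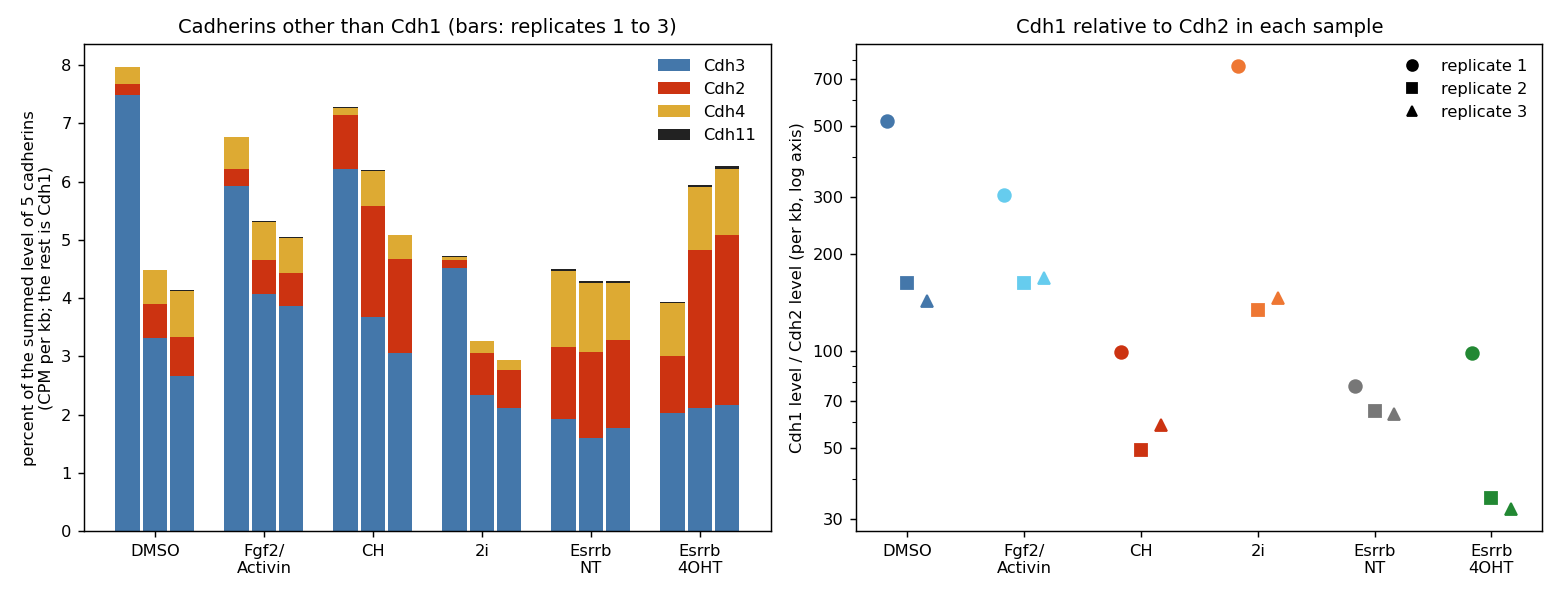
Left, percent of the summed per-kb level of the 5 cadherins held by those other than Cdh1, stacked, with 1 bar per replicate; right, the ratio of the per-kb levels of Cdh1 and Cdh2 in each sample on a log axis. The ratio lies between 49.3 and 99.5 in CH and between 143 and 517 in DMSO, and replicate 1 has the highest ratio in each of the 6 groups.

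Put as a balance, Cdh1 exceeded Cdh2 per kb 517, 162 and 143 times in DMSO, 306, 163 and 168 times in Fgf2/Activin and 765, 134 and 146 times in 2i. In CH the ratio was 99.5, 49.3 and 59.0. All CH samples lay below all samples of the other 3 E14 groups. Esrrb floxed cells, also in CH, had ratios of 77.9, 65.2 and 63.5, within the range of the E14 cells in CH, and Esrrb null cells had 98.5, 34.9 and 32.2. The share of Cdh2 in the 5 cadherins was 1.48 ± 0.497% (SD, n = 3) in CH, 0.480 ± 0.265% in DMSO and 2.19 ± 1.06% in Esrrb null cells, in each case a small part of the whole. Both measures depend on the gene length used: with the longest transcript in place of merged exons these shares were 2.37%, 0.771% and 3.48%, and every ratio was lower by the same factor of 1.61.

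Cdh3, P-cadherin, followed Cdh1 in per-kb level in the E14 cells. It lies on chromosome 8 at 106510891 to 106557297, only 46.1 kb upstream of Cdh1 and on the same strand. Its level was 77.2, 30.6 and 24.7 CPM in DMSO and 57.0, 36.4 and 34.5 CPM in Fgf2/Activin. In CH it was 27.5, 19.7 and 16.5 CPM, and in 2i 27.5, 15.8 and 14.0 CPM. Replicate 1 was highest in all 4 groups, so that the ranges of DMSO and CH overlapped, while those of Fgf2/Activin and 2i did not. CH against DMSO gave -1.05 (SE 0.42, adjusted p = 0.0642) and 2i against Fgf2/Activin -1.16 (SE 0.42, adjusted p = 0.0391), neither a call. Within pairs CH against DMSO was -1.49, -0.63 and -0.58, so that replicate 1 gave the largest difference, and without replicate 1 of every group it was -0.60 (adjusted p = 0.000215), under the fold minimum, as with the block (-0.93, adjusted p = 0.000486). With the block 2i against Fgf2/Activin was called, at -1.18 (adjusted p = 6.28e-05), and within pairs it was -1.05, -1.21 and -1.30. In Esrrb floxed cells Cdh3 was at 12.1, 9.998 and 11.0 CPM, below every E14 sample, and in Esrrb null cells at 17.6, 16.5 and 16.7 CPM. These 2 groups did not overlap, and the log2 fold change of 0.65 (SE 0.10, adjusted p = 0.000672) was in the direction of Cdh1.

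Cdh4 (chromosome 2, 179442431 to 179899373), R-cadherin, a close relative of Cdh2 known from retina and brain, had its lowest means in the 2 E14 groups with CHIR99021. It was 8.61, 9.67 and 9.11 CPM in Fgf2/Activin and 0.627, 2.15 and 1.75 CPM in 2i. In DMSO it was 4.92, 8.64 and 12.3 CPM and in CH 0.885, 5.36 and 3.76 CPM. Every 2i sample lay below every Fgf2/Activin sample, and CH overlapped with DMSO. Cdh4 fell in 2i against Fgf2/Activin, with a log2 fold change of -2.58 (SE 0.59, adjusted p = 0.00375). That call was lost in 4 of the 6 fits that left out 1 of these samples, with adjusted p between 0.0104 and 0.0135: without replicate 2 or 3 of Fgf2/Activin or without replicate 1 or 3 of 2i. In CH against DMSO it gave -1.36 (SE 0.56, adjusted p = 0.0728), and -1.45 (adjusted p = 0.00482) with the block, a call. Esrrb fl/fl cells, although in CH, had 13.7, 12.1 and 10.2 CPM floxed and 13.0, 13.9 and 14.5 CPM null, overlapping ranges with a log2 fold change of 0.24 (SE 0.12, adjusted p = 0.126).

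Cdh11 (chromosome 8, 102632095 to 102785642), OB-cadherin of mesenchyme, was hardly counted. The E14 samples had 0 to 8 counts, the Esrrb floxed samples 7, 9 and 8 and the null samples 9, 16 and 18. It passed neither the low-count filter of the E14 fit nor that of the Esrrb fl/fl fit, and 20.3% of its longest transcript matched 7 other genes.

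**Figure D3:**
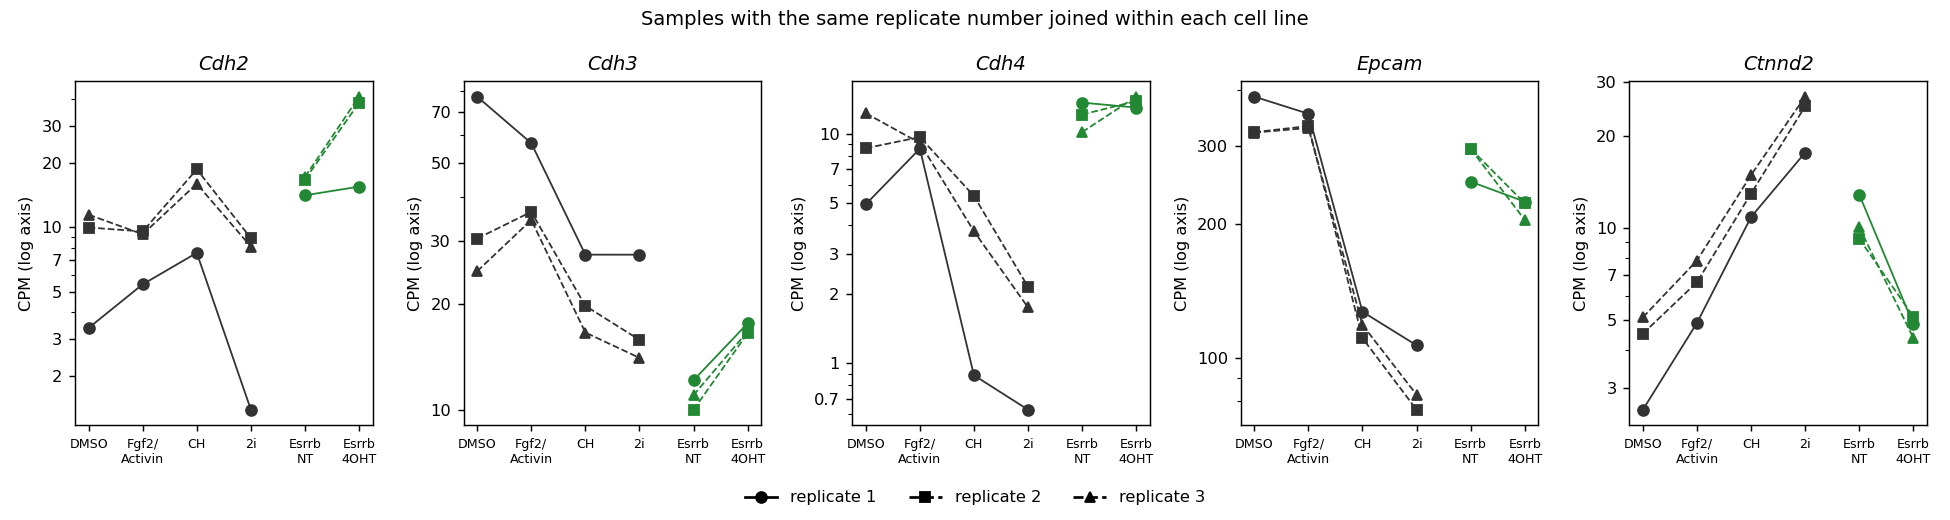
CPM on log axes of 5 members, with samples of the same replicate number joined within the E14 cells (black, 4 groups) and within the Esrrb fl/fl cells (green, 2 groups). The E14 groups are joined in the order DMSO, Fgf2/Activin, CH and 2i. The lines of replicate 1 lie below the others for Cdh2, Cdh4 and Ctnnd2 in E14 cells and above them for Cdh3 and Epcam. Most lines of a gene run the same way from Fgf2/Activin to CH and from CH to 2i.

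Among the α-catenins, Ctnna1 (chromosome 18, 35118859 to 35254779), the broadly expressed one, was called in no comparison. It was 571, 398 and 395 CPM in DMSO and 455, 397 and 425 CPM in CH, overlapping ranges with a log2 fold change of -0.09 (SE 0.14, 95% interval -0.40 to 0.22, adjusted p = 0.638). Its group means over all 6 groups lay between 339 CPM in Esrrb floxed and 499 CPM in 2i cells. In the Esrrb fl/fl cells it was 336, 339.9 and 342 CPM floxed and 426, 380.2 and 369 CPM null, without overlap, and the log2 fold change was 0.24 (SE 0.06, adjusted p = 0.00587), far under the fold minimum. Per kb, Ctnna1 stood at 70.8 ± 15.7 CPM (SD, n = 3) in DMSO and at 66.3 ± 4.55 CPM in CH.

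Ctnna2 (chromosome 6, 76881637 to 77979699), the α-catenin of neurons, was near the limit of detection. It had 4, 5 and 11 counts in DMSO and 13, 11 and 11 in Fgf2/Activin, and 0 in all 3 CH samples. In 2i it had 2, 0 and 0 counts, and in the Esrrb fl/fl samples at most 3. Ctnna2 was called lower in CH against DMSO (adjusted p = 0.00872) and in 2i against Fgf2/Activin (adjusted p = 0.00510), but each call was lost in 5 of the 6 fits that left out 1 of the compared samples, with adjusted p between 0.0142 and 0.0243 where it was lost. The CH call held only without DMSO replicate 1, and the 2i call only without 2i replicate 1. Ctnna2 passed the filter of the E14 fit through the groups where it was higher, so no result is read from these calls.

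Of the p120 family, Ctnnd1 (chromosome 2, 84600071 to 84650765), which encodes p120-catenin itself, was counted at 28.9 to 50.9 CPM over all E14 samples. It was 50.9, 37.5 and 40.6 CPM in DMSO against 28.9, 32.4 and 33.9 CPM in CH, without overlap, with a log2 fold change of -0.43 (SE 0.13, adjusted p = 0.0220). In Esrrb fl/fl cells it was 45.0, 42.7 and 42.8 CPM floxed and 51.9, 46.2 and 43.5 CPM null (log2 fold change 0.15, SE 0.08, adjusted p = 0.109). On the same strand, 61.2% of its exon length is shared with Gm28635, and the default of HTSeq assigns a read that lies in both genes to neither, so its level was not compared with that of other genes. Gm28635 was listed at 0 in all 18 samples.

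Ctnnd2 (chromosome 15, 30172593 to 31029341), δ-catenin, first known from neurons, was the 1 member that rose in CH and in 2i. It was 2.54, 4.51 and 5.10 CPM in DMSO and 10.9, 13.0 and 14.9 CPM in CH, a log2 fold change of 1.68 (SE 0.28, adjusted p = 0.000593). In Fgf2/Activin it was 4.89, 6.65 and 7.83 CPM and in 2i 17.7, 25.0 and 26.9 CPM, a log2 fold change of 1.85 (SE 0.27, adjusted p = 0.000197). Neither pair of groups overlapped, and 2i also lay above CH without overlap, at 0.84 (SE 0.26, adjusted p = 0.0882). In the Esrrb fl/fl cells the direction from non-polarised to polarised was the same. Floxed cells had 12.9, 9.22 and 10.1 CPM, within or just under the CH range of E14 cells, and null cells had 4.85, 5.13 and 4.37 CPM, within or near the DMSO range.

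Ctnnd2 thus fell in the 4OHT-treated Esrrb null cells, with a log2 fold change of -1.13 (SE 0.16, adjusted p = 0.000356). Without Esrrb floxed replicate 1, the highest sample, it was -0.98 (adjusted p = 0.000500) and no longer past the fold minimum, and likewise -0.98 without replicate 1 of both groups. The test of the difference between the lines gave -0.52 (SE 0.35, 95% interval -1.25 to 0.22, adjusted p = 0.261). Its order by mean ran from 2i through CH and Esrrb floxed cells, which overlapped, to Fgf2/Activin, Esrrb null and DMSO cells, which overlapped with their neighbours. Per kb it remained far below Ctnna1, at 2.25 ± 0.473 CPM (SD, n = 3) in 2i.

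Epcam (chromosome 17, 87635979 to 87651129) separated polarised from non-polarised E14 cells without overlap and was called in both of their comparisons. It was 387, 322 and 321 CPM in DMSO and 354, 333 and 329 CPM in Fgf2/Activin. In CH it was 127, 111 and 118 CPM and in 2i 107, 76.3 and 82.5 CPM. All 6 samples without CHIR99021 lay above all 6 samples with it, and CH lay above 2i without overlap. Epcam fell in CH against DMSO by 1.53 on the log2 scale (SE 0.12, adjusted p = 3.47e-06) and in 2i against Fgf2/Activin by 1.93 (SE 0.12, adjusted p = 3.89e-07). Between 2i and CH the log2 fold change was -0.42 (SE 0.12, adjusted p = 0.0593), and between Fgf2/Activin and DMSO -0.02 (95% interval -0.28 to 0.24, adjusted p = 0.960).

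The Esrrb fl/fl cells did not repeat that split. Floxed cells, non-polarised and in CH, had 249, 295 and 295 CPM of Epcam, above the whole range of the E14 cells in CH, and null cells had 225, 223 and 204 CPM. The groups did not overlap, and here the polarised cells were lower, by a log2 fold change of -0.33 (SE 0.07, adjusted p = 0.00452). The polarised minus non-polarised difference was thus 1.90 larger on the log2 scale in E14 cells than in Esrrb fl/fl cells (SE 0.16, 95% interval 1.56 to 2.24, adjusted p = 2.58e-07). Line, passage, time in culture and the means by which polarity was changed all differ between these contrasts and cannot be told apart. The order by mean was DMSO and Fgf2/Activin, which overlapped, Esrrb floxed, Esrrb null, CH and 2i, each of the last 4 apart from the next.

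**Figure D4:**
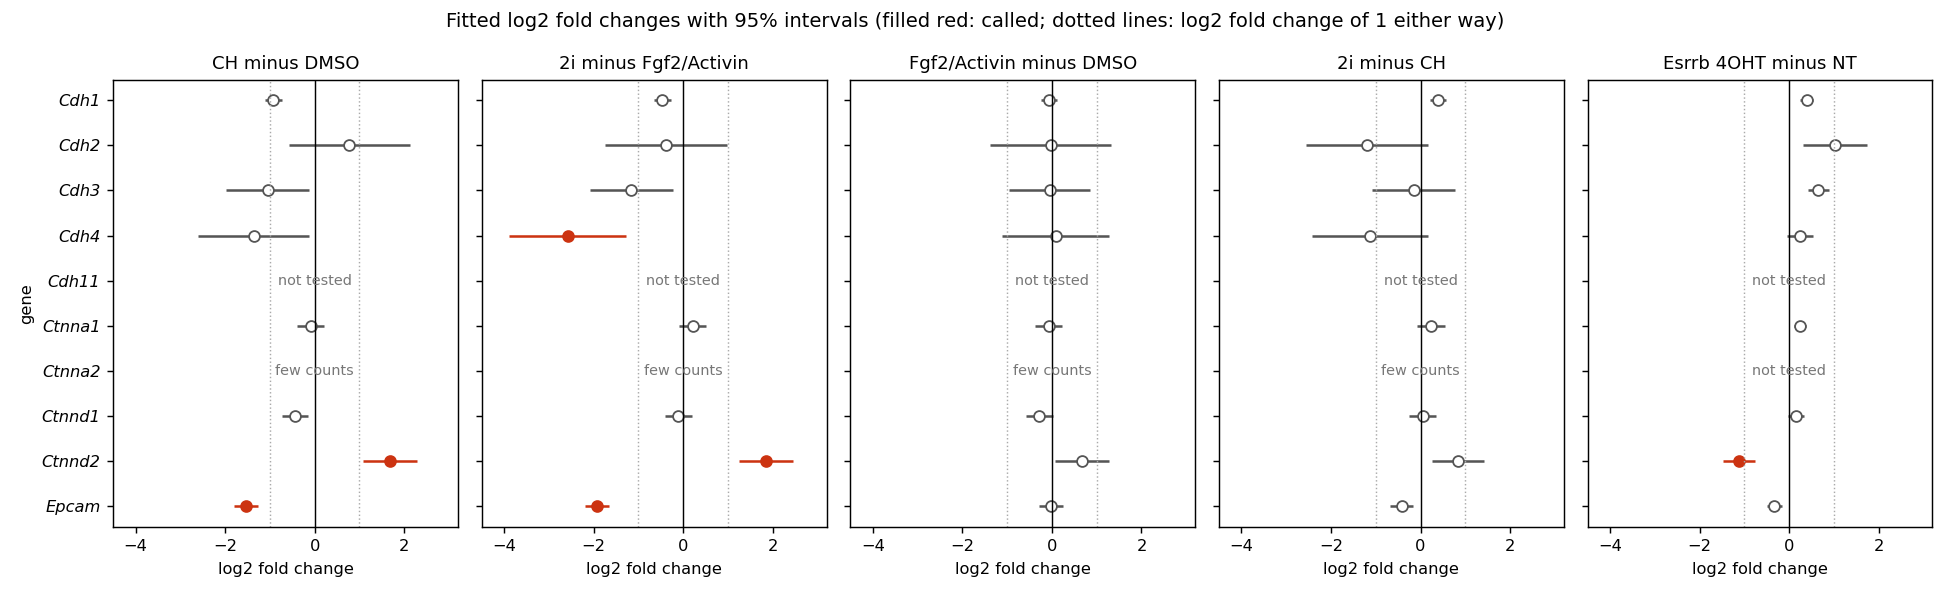
Fitted log2 fold changes (points) with 95% intervals (lines) of the members in 5 comparisons, with filled red points for calls and dotted lines at a log2 fold change of 1 either way. Ctnna2 is left out for its few counts, and Cdh11 did not pass the filters of these fits. Epcam and Ctnnd2 are called in opposite directions in the first 2 panels, and no member is called in Fgf2/Activin against DMSO or in 2i against CH.

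Counted over the group, 9 members were tested in the E14 comparisons. In CH against DMSO, 1 was called higher (Ctnnd2) and 2 lower (Epcam, Ctnna2), against 7.51% of all 16413 genes called higher and 10.2% lower, and the median log2 fold change was -0.93 against -0.00 over all genes tested. In 2i against Fgf2/Activin, 1 was called higher (Ctnnd2) and 3 lower (Epcam, Cdh4, Ctnna2), against 9.13% and 14.4%, with a median of -0.46 against 0.00. These counts and medians include Ctnna2, which passed the filter through the groups where it was higher. Adding Cdh1, which missed the fold minimum, 4 and 5 of the 9 had an adjusted p under 0.01. Of all 16413 genes, 4750 and 6193 did at any fold.

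No member was called in Fgf2/Activin against DMSO or in 2i against CH, against 0.902% of genes higher and 0.347% lower in the first and 0.317% higher and 1.67% lower in the second. DESeq2's test called none either. With the replicate block Cdh2 was called lower in 2i against CH, and without replicate 1 of every group Cdh2 and Cdh4 were (-1.03, adjusted p = 7.83e-06, and -1.23, adjusted p = 0.000972). At an unadjusted p under 0.05 there was 1 in the first, Ctnnd2, and 3 in the second, Cdh1, Ctnnd2 and Epcam. The share of all genes under that threshold was not taken. Cdh1, Cdh2, Cdh3, Cdh4 and Ctnna1 had log2 fold changes between -0.07 and 0.09 in Fgf2/Activin against DMSO, and those of Cdh2 and Cdh3 had 95% intervals reaching from -1.38 to 1.32 and from -0.96 to 0.86.

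In Esrrb null against floxed cells, 8 members were tested and 1 was called, Ctnnd2, lower, against 12.8% of the 14893 genes called higher and 3.87% lower. An adjusted p under 0.01 at any fold was reached by 5, of which Cdh1, Cdh3 and Ctnna1 were higher and Ctnnd2 and Epcam lower. Of all 14893 genes, 6621 reached it. In the test of the difference between the lines 10 members were tested and 1 was called, Epcam, with a larger polarised minus non-polarised difference in E14 cells, against 5.85% of 17032 genes in that direction and 8.95% in the other.

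Of 13 further classical cadherins, most of them known from the nervous system, only 5 had enough counts in E14 cells to be tested. In CH against DMSO 3 of the 5 were called lower, against 10.2% of all genes: Cdh10 (log2 fold change -1.65), Cdh24 (-1.26) and Cdh7. In 2i against Fgf2/Activin 4 of the 5 were, against 14.4% of all genes: Cdh10 (-3.06), Cdh24, Cdh7 and Cdh22. Cdh7 and Cdh22 had few counts and passed the filter through the groups where they were higher. Cdh7 had at most 10 counts in a DMSO sample, 15 in Fgf2/Activin and 1 in CH and in 2i, and Cdh22 at most 55 in Fgf2/Activin and 6 in 2i, so no fold change is given for them. The counts of calls therefore do not describe the 13. Cdh10 was also lower in 2i than in CH (-1.63). Their summed level was 31.5 to 38.1 CPM in DMSO and 10.1 to 14.9 CPM in CH. In Esrrb fl/fl cells 4 were tested and none was called.

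Of 6 further catenins, 5 were tested and none was called in any of the 5 comparisons of groups. Of all genes, 7.51% were called higher and 10.2% lower in CH against DMSO, and 9.13% and 14.4% in 2i against Fgf2/Activin. The shares were 0.902% and 0.347% in Fgf2/Activin against DMSO, 0.317% and 1.67% in 2i against CH, and 12.8% and 3.87% in Esrrb null against floxed cells. Ctnnb1, β-catenin itself, lay at 708 ± 56.0 CPM (SD, n = 3) in DMSO and 631 ± 63.6 CPM in CH, and at 527 ± 15.04 CPM in Esrrb floxed and 652 ± 32.3 CPM in Esrrb null cells. Jup, plakoglobin, was the 1 of the 5 called in the test of the difference between the lines (1.02, SE 0.26, adjusted p = 0.00570), against 5.85% of all genes in that direction. Of the proteins that link junctions to actin and microtubules, 11 were tested. In each of the first 2 comparisons 1 was called higher and 2 lower, against 7.51% and 10.2% of all genes in CH against DMSO and 9.13% and 14.4% in 2i against Fgf2/Activin. Lima1, an actin-bundling protein that binds α-catenin, rose in CH against DMSO (2.06) and in 2i against Fgf2/Activin (2.69). Ajuba (-1.17 and -1.18) and Ssx2ip (-1.11 and -1.41) fell in both. Vcl, vinculin, rose in Esrrb null cells (1.08), the 1 of the 11 called there, against 12.8% of all genes called higher.

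Of 8 partners of Epcam and proteases that cut it or its partners, with their inhibitors, St14, matriptase, fell in CH against DMSO (-1.13), and Fhl2 and Cldn7 (-3.86), a claudin that Epcam binds, fell in 2i against Fgf2/Activin. Against the 10.2% and 14.4% of all genes called lower, these were 1 and 2 of the 8. Fhl2, also called lower in 2i than in CH, had at most 2 counts in a 2i sample, 15 in CH and 53 in Fgf2/Activin. In Esrrb null against floxed cells 4 of the 8 were called higher and none lower, against 12.8% and 3.87% of all genes, while Epcam itself was lower: Fhl2 (1.64), Cldn7 (1.57), St14 (1.37) and Adam10 (1.05), the last a protease of the cell surface. The median log2 fold change of the 8 was 0.86, against 0.00 over all genes tested. In the test of the difference between the lines Adam10 was the 1 called (-1.47), with a smaller polarised minus non-polarised difference in E14 cells.

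Known regulators of Cdh1 transcription were called in both directions, in CH against DMSO 2 of the 9 tested higher and 3 lower, against 7.51% and 10.2% of all genes. The repressors Zeb1 (4.58) and Snai1 (1.68) rose in CH against DMSO, and Ovol1, Grhl2 (-1.93) and Ovol2 (-1.14), which uphold the epithelial state, fell. Ovol1 had at most 108 counts in a DMSO and 15 in a CH sample. It passed the filter of the E14 fit through the groups where it was higher, so no fold change is given for it. Zeb1 rose from 0.321 to 0.348 CPM in DMSO, at most 12 counts in a sample, to 4.22 to 10.2 CPM in CH, a low level still. In Esrrb fl/fl cells Zeb1 was at 13.7 to 14.1 CPM floxed and 7.58 to 11.6 CPM null. Grhl2 was 68.8 to 98.0 CPM in DMSO, 71.4 to 89.6 CPM in Fgf2/Activin, 8.44 to 30.6 CPM in CH and 4.74 to 11.1 CPM in 2i, and in Esrrb fl/fl cells 99.9 to 127 CPM floxed and 40.2 to 56.0 CPM null. In 2i against Fgf2/Activin the same directions were called for Zeb1 (4.15), Grhl2 (-3.22) and Ovol1, which had at most 2 counts in a 2i sample and 15 in CH. That was 1 of the 9 higher and 2 lower, against 9.13% and 14.4% of all genes. Snai1 was lower in 2i than in CH (-1.19), the 1 of the 9 called there, against 1.67% of all genes called lower. In Esrrb null cells Snai2 and Twist1 (1.33) were called higher and Ovol1 and Grhl2 (-1.24) lower, while Cdh1 was higher in these cells. That was 2 of the 9 in each direction, against 12.8% of all genes called higher and 3.87% lower. Snai2 had at most 7 counts in a floxed and 41 in a null sample, and Ovol1 at most 21 and 8. Both passed the filter of that fit through the group where they were higher, so no fold change is given for them there or between the lines. In the test of the difference between the lines, Ovol1, Grhl2 (3.21) and Ovol2 (2.00) were called with a larger polarised minus non-polarised difference in E14 cells. Zeb1 (-4.10), Snai2 and Snai1 (-1.95) were called with a smaller one. Each direction held 3 of the 9 tested, against 5.85% of all genes with a larger and 8.95% with a smaller difference.

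The genes with profiles nearest to those of 4 members over the 18 samples were taken among 14535 genes, by the mean absolute difference of centred log2(CPM + 1) values. For Cdh1, whose own values deviated from their mean by 0.292 on average, these were Eif2ak3 (0.0981), Zdhhc24 (0.120) and F11r (0.129), the last a tight-junction adhesion molecule. For Epcam (own deviation 0.666) they were Sestd1 (0.155), Gramd3 (0.179) and Zfp36l2 (0.188). Cdh3 (0.622) had Cers1 (0.143), Pawr (0.147) and Spry1 (0.161), a Sprouty gene. For Cdh2 (0.731), the member of these 4 with the widest spread, they were Aebp1 (0.329), Ttpal (0.348) and Tmem39b (0.349).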

How the data were processed

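Poly(A) RNA of 18 samples was sequenced after the cells had been freed from Matrigel with accutase and trypsin. Per the study's methods, the authors aligned reads to mm10 with TopHat2 and counted them per Ensembl gene of GRCm38 with HTSeq without regard to strand, and the deposited values are raw counts. The Ensembl release is not given in the sources used here. Without strand, reads of Ctnna1 and Lrrtm2 cannot be separated where they overlap (1.48% of the exon length of Ctnna1).

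Groups and replicate numbers came from the sample titles. Counts were tested with edgeR 4.0.16 in R 4.3.3 (TMM, filterByExpr, glmQLFit and glmQLFTest), the 12 E14 samples in one fit, the 6 Esrrb fl/fl samples in another and all 18 for the difference between the lines. The thresholds of 0.01 and 1 are the study's, which used DESeq2. DESeq2 1.42.0 was an alternative. Further alternatives were the size factors of DESeq2, no filter on low counts, no minimum fold change, fits of only the groups compared, a replicate block, the longest transcript as length, each sample left out in turn and, chosen after seeing the data, replicate 1 left out of every group. Same-numbered samples deviated together: correlations of their deviations averaged 0.597 (lowest 0.394) over 18 pairs and 10473 genes in E14 cells, and 0.449 (lowest 0.389) over 3 pairs in Esrrb fl/fl cells, against means of -0.226 and -0.183 for different numbers. Single pairs of different numbers reached 0.742 and 0.445, between replicates 2 and 3, so replicate 1 stood apart from both. Genes are not independent replicates. Every replicate pair differed by more than counting noise (chi-square per gene 1.46 to 65.9 over 18 pairs). The study states that its experiments were repeated independently, but the labels do not say what a replicate number marks, so p-values measure the spread between these samples, which may be technical.

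Symbols and positions came from GENCODE M21 (49412 identifiers matched), shared sequence from blastn 2.17.0 (matches of at least 75 bases at 95% identity), promoters from RefSeq (GRCm38.p6), and plots from matplotlib 3.10.9. Beside the members and Esrrb, at most 3 called genes with the largest change per list and comparison were to be named, and the 3 nearest profiles. Other genes named were chosen after their values were seen. The members and lists were chosen with earlier results of these data known. A gene of these lists is not reported here.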

Additional observations from a re-analysis of the deposited data

Results flagged for a closer look

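The difference between polarised and non-polarised cells in Epcam was not the same in the 2 lines by the test of that difference itself. It was 1.90 larger on the log2 scale in E14 cells than in Esrrb fl/fl cells (SE 0.16, adjusted p = 2.58e-07 by the quasi-likelihood test of edgeR, adjusted by Benjamini-Hochberg). All 3 DMSO samples lay above all 3 CH samples, and all 3 Esrrb null samples lay below all 3 Esrrb floxed samples. Line, passage, hours in culture and the treatment that changed polarity differ between the contrasts and cannot be told apart.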

How the results depend on the processing

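The calls of Epcam in E14 cells and between the lines, and those of Ctnnd2 in E14 cells, held under every alternative run. In CH against DMSO, members called lower numbered 1 in place of 2 with only the 6 samples compared and 1 to 2 with a sample left out. In 2i against Fgf2/Activin they numbered 1 to 2 in place of 3 with a sample left out, the calls lost being those of Cdh4 and Ctnna2. In 2i against CH they went from 0 to 1 with the replicate block (Cdh2) and to 2 without replicate 1 of every group (Cdh2 and Cdh4). In Esrrb null against floxed cells, members called higher went from 0 to 1 without the low-count filter and without replicate 1 (Cdh2) and to 3 without a minimum fold change, and those called lower from 1 to 0 without replicate 1 and to 2 without a minimum fold change. With a sample left out both numbers were 0 to 1. Between the lines, members with a larger difference in E14 cells went from 1 to 2 without a minimum fold change (Cdh1), and those with a smaller one from 0 to 1 with the block and to 1 without replicate 1 (Cdh2). The block changed no call of a member other than those given above with the results. With the block and without replicate 1 of every group, members called lower were 3 in CH against DMSO, gaining Cdh4, and 4 in 2i against Fgf2/Activin, gaining Cdh3.

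Of all genes, 2907 were called in CH against DMSO, 3857 in 2i against Fgf2/Activin, 2485 in Esrrb null against floxed cells and 2520 between the lines, and without a minimum fold change 4750, 6193, 6621 and 4350. For Fgf2/Activin against DMSO, 205 became 424 with the block, 379 with DESeq2's test, 499 without replicate 1, 87 with only the 6 samples compared and 112 to 171 with a sample left out. For 2i against CH, 326 became 672, 605, 768, 100 and 144 to 275 in the same order.

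Some log2 fold changes of members that were not called turned sign. Without replicate 1 of every group these were, in Fgf2/Activin against DMSO, Cdh3 (0.36), Cdh4 (-0.14), Ctnna1 (0.00043) and Epcam (0.045), Ctnna1 in CH against DMSO (0.061), Ctnnd1 in 2i against Fgf2/Activin (0.081) and Cdh3 between the lines (-0.059). With the block they were Cdh2 (0.10) and Cdh3 (0.065) in Fgf2/Activin against DMSO. With a sample left out, the values in Fgf2/Activin against DMSO ran from -0.41 to 0.28 for Cdh2, -0.34 to 0.62 for Cdh3, -0.20 to 0.43 for Cdh4, -0.20 to 0.12 for Ctnna1 and -0.066 to 0.073 for Epcam. In 2i against CH they ran from -0.51 to 0.072 for Cdh3 and -0.014 to 0.12 for Ctnnd1, in 2i against Fgf2/Activin from -0.75 to 0.084 for Cdh2 and -0.16 to 0.016 for Ctnnd1, in CH against DMSO from -0.18 to 0.10 for Ctnna1, and between the lines from -0.23 to 0.73 for Cdh3. The cause was not tested. With the longest transcript as length, the share of Cdh2 was 2.37% in place of 1.48% in CH, 0.771% in place of 0.480% in DMSO and 3.48% in place of 2.19% in Esrrb null cells, and the ratios of Cdh1 to Cdh2 were lower by a factor of 1.61. Depth limits Cdh11 and Ctnna2, with at most 18 and 13 counts in a sample.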
